A study of Oryza sativa and Arabidopsis thaliana with 28 samples.

Results

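Of the 38 Arabidopsis thaliana genes chosen here, each coding for a protein of the small (40S) subunit of the cytosolic ribosome, 36 were in the deposited table of ribosome association, among 21174 genes in all. They were chosen by their AGI gene codes, with no measured value in the choice, and stand for 16 proteins of the subunit. RPS7B (AT3G02560) and RPS8A (AT5G20290) were not analysed here. The series profiled N4-acetylcytidine, a modified base of RNA, and the association of mRNA with ribosomes in Arabidopsis and rice seedlings. The groups used here were all wild-type Col-0 seedlings. In RNC-seq, mRNA bound in ribosome-nascent chain complexes (RNC, 2 libraries) was set against input mRNA (2 libraries), and the labels give no age for these seedlings. In ac4C-seq, RNA treated with 100 mM NaCNBH3 (1 library) was set against control RNA (1 library), both for 20 min and from day 10. NaCNBH3 reduces N4-acetylcytidine, after which reverse transcriptase can read it as T. Sites in this assay could be assigned to the 13 genes of the set that lie on the plus strand. Gene names were paired with their codes from general knowledge and were not checked against an annotation, and the naming of the RPS13 copies differs between sources.

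The small subunit binds the mRNA, scans for the start codon and checks the pairing of codon and tRNA, while the large subunit forms the peptide bonds. In Arabidopsis most of its proteins are encoded by a family of gene copies (paralogs), whose products differ little, and transcripts of these genes are among the most abundant in growing tissue. Synthesis of ribosomal proteins is a large cost to the cell and is known in plants to be adjusted by light, sugar and the TOR kinase, in part through how many of the mRNAs sit on ribosomes. RNC-seq is meant to compare that fraction between genes.

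Levels in the table are RPKM, reads scaled by a length in kilobases and by the depth of the library. The mRNA values were whole read counts divided by the distance from the start to the end of the gene, introns included. The RNC values were divided by another length, which is not stated and differed among the transcripts of a gene. As recovered together with the reads, it ran from 51 to 1581 bases for these genes, while their spans ran from 1048 to 2262 bases. Over 9031 genes of the table, the recovered length and the span had a Spearman correlation of -0.080. Read counts were recovered from the RNC values by their whole-number steps. The libraries are called RNC 1, RNC 2, mRNA 1 and mRNA 2. Over the genes of the table, the RNC libraries held 21156799 and 19592533 recovered reads, and the mRNA libraries 18768358 and 18847446 reads. Each result below is therefore given on the deposited scale and as read density, which here is reads per kilobase of gene span, scaled in the same way by these table totals in both kinds of library. The recovery returns the smallest whole numbers that satisfy the ratios, so for some genes the true reads may be a multiple of those used here. The true length would then be the same multiple of the recovered one. The labels give whole seedlings as the tissue. The shoot marker RCA, which codes for Rubisco activase, had 5494 and 5374 RPKM in RNC, against 1801 and 1888 RPKM in mRNA, and LHCB1.1, a light-harvesting gene, had 1889 and 1823 against 4179.9 and 4054. The root marker NRT2.1, a nitrate transporter gene, was near 0, between 0.122 and 0.276 RPKM in the 4 libraries. RBCS1A and PHT1.1, the other markers chosen, were not analysed here. In seedlings, a lower level of a transcript in fewer cells and in each cell cannot be told apart.

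**Figure D1:**
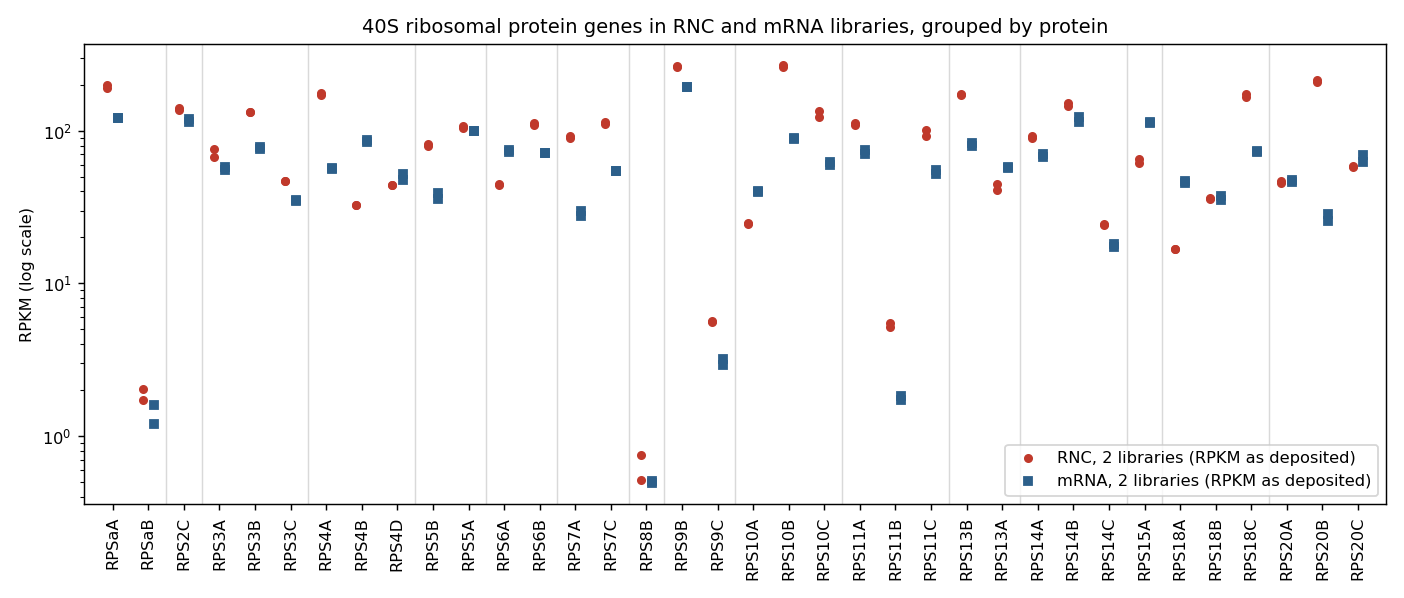
RPKM as deposited (log scale) of the 36 genes in the 2 RNC libraries (circles) and the 2 mRNA libraries (squares), with grey lines between proteins. In mRNA, 32 genes lie at or above 17.7 RPKM and 4 (RPSaB, RPS8B, RPS9C and RPS11B) below 5 RPKM.

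In mRNA, the set was highly expressed, and each of the 13 proteins with at least 2 analysed copies had a strong one. The median of the 36 genes was 57.2 RPKM, against 2.43 RPKM for all genes of the table, and the highest was RPS9B with 194 ± 1.11 RPKM (SD, n = 2). Below it came RPSaA with 121 ± 0.460, RPS14B with 118 ± 6.69, RPS2C with 116 ± 3.35 and RPS15A with 113 ± 0.658 RPKM. Neighbours in this order were often within their spread: RPSaA and RPS14B overlapped, as did RPS14B and RPS2C. At the other end, RPS8B had 0.498 ± 0.0119, RPSaB 1.39 ± 0.276, RPS11B 1.77 ± 0.0775 and RPS9C 3.05 ± 0.184 RPKM, and the next gene up was RPS14C with 17.7 ± 0.523 RPKM. For the 32 genes above 5 RPKM, the 2 mRNA libraries differed by at most 11.0%. Summed over the copies, the 13 proteins spanned a narrower range than their genes, which summing itself favours. S2, S8 and S15, with fewer than 2 analysed copies in the set, are not among them. The sums ran from 82.9 RPKM for S7, which lacks RPS7B here, to 205 RPKM for S14, with a coefficient of variation of 22.9% over the 13 proteins. The highest copy exceeded the lowest by 1.03-fold in S6, by 1.41-fold in S13 and by 87.0-fold in Sa. In S3, for example, the mRNA of 3 copies summed to 168 ± 2.61 RPKM, and in S9 that of 2 copies, nearly all of it RPS9B, to 197 ± 1.30 RPKM (SD, n = 2).

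The comparison of RNC with mRNA asks how a gene's level relative to other genes differed between ribosome-bound and input mRNA. Each library is scaled to its own total, so the part of a gene's transcripts carried on ribosomes is not measured. On the deposited scale, 23 of the 35 tested genes were called higher in RNC and 8 lower (limma on log2(RPKM + 1), adjusted p under 0.05 over 16487 genes), beside 76.1% and 13.1% of all genes tested. Their median log2 change was 0.43, against 0.98 for all genes tested. With each library centred on its median, every deposited change is lower by 1.05, and 5 genes of the set were higher and 25 lower, beside 38.7% and 43.8%; the genes of the set whose deposited change lies between 0 and that shift then change sign. Changes below are without centring. As read density, 17 were called higher and 6 lower, beside 18.0% and 22.1% of all genes, and the median change was 0.14, against -0.0062 for all genes. With densities also centred, 20 were higher and 5 lower, beside 26.4% and 17.4%: RPS18A lost its call, and RPS2C, RPS4B and RPS10B became called higher, at 0.18 (adjusted p = 0.0188), 0.20 (0.0129) and 0.18 (0.0202). The lower density calls depend on the read recovery: if the true RNC reads were double the recovered ones, 5 of the 6 genes would be above 0. With 1 library left out, density called 10 higher and 5 lower without RNC 1, 12 and 5 without RNC 2, 13 and 7 without mRNA 1, and 10 and 5 without mRNA 2. Of the 17 higher calls 9 held in each of the 4 fits, as did 5 of the 6 lower ones. RPS8B, at 0.515 and 0.750 RPKM in RNC, against 0.490 and 0.506 RPKM in mRNA, was under the minimum mean of 1 RPKM and was not tested. Since nothing in the labels says that the libraries came from separate cultures, these p-values measure only the spread between them.

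The 2 scales ordered the genes differently. The deposited log2 change followed the log2 ratio of the span to the recovered length behind the RNC value (Pearson 0.888, Spearman 0.893 over 35 genes). The change in read density had a Spearman correlation of -0.0832 with that ratio. These are descriptions across genes that share the same 4 libraries, and the deposited change contains that length by construction. The deposited and the density changes had a Pearson correlation of 0.227 with each other. The 13 genes called higher on both scales were RPS3A, RPS3B, RPS3C, RPS4A, RPS5B, RPS6B, RPS7C, RPS9B, RPS9C, RPS10C, RPS13B, RPS14B and RPS20B, and 3 (RPS10A, RPS15A and RPS18A) were called lower on both. Another 5 were called in opposite directions: RPSaA and RPS11C were higher as deposited and lower as density, and RPS6A, RPS13A and RPS20C the reverse. As deposited 76.1% of all genes were called higher, and as density 18.0%. The part of all genes called alike on both scales was not counted. With the deposited values centred, RPS4A and RPS20B alone of the 13 stayed higher. RPS5B, RPS7C, RPS10C and RPS13B were then not called, and the rest of the 13 were called lower. In 10 of the 13 genes with several transcripts, 1 read count stood in the table as several RNC values. RPS4A is an example, with 63.9 RPKM for one transcript and 289 RPKM for the other in the first RNC library.

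**Figure D2:**
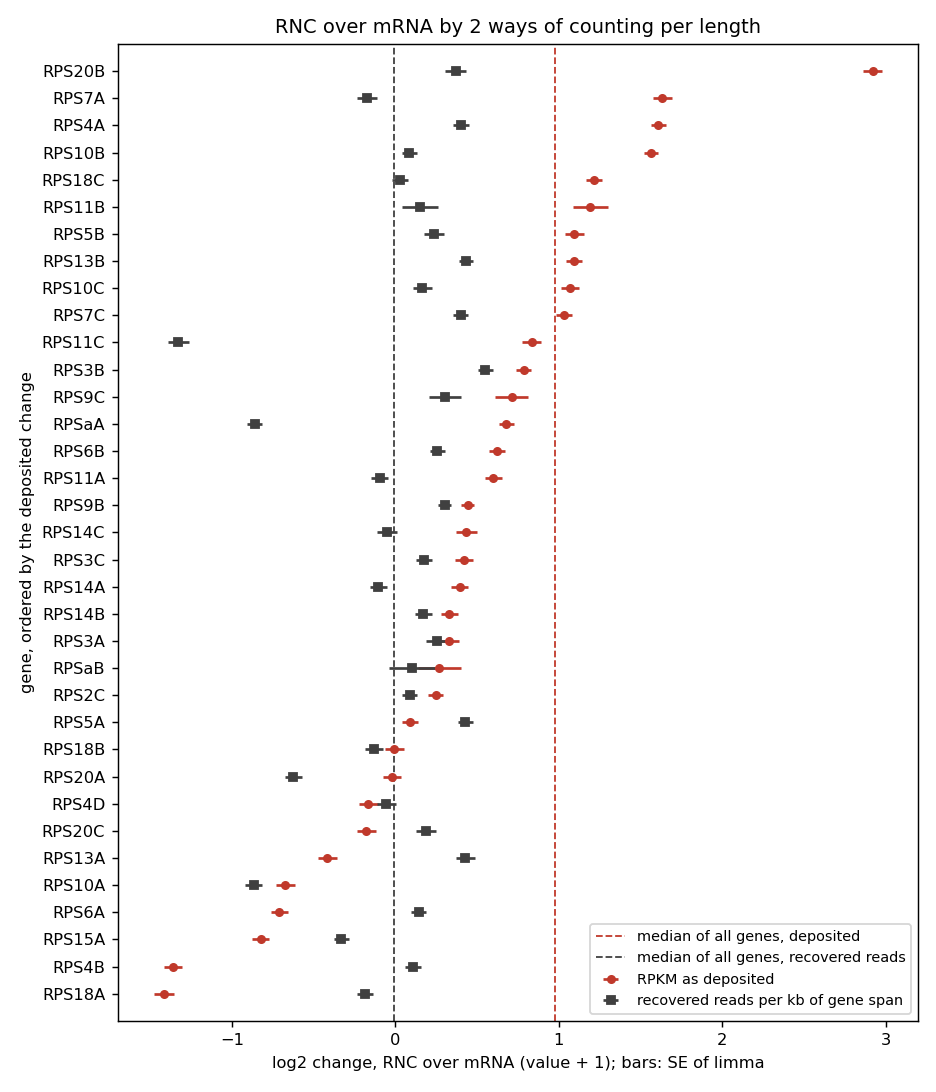
Log2 change of RNC over mRNA for the 35 tested genes on the deposited scale (circles) and as read density (squares), with the standard error of limma; dashed lines mark the median of all genes tested on each scale. The deposited changes spread from -1.41 (RPS18A) to 2.92 (RPS20B), whereas the density changes of 31 genes lie between -0.33 and 0.55 and those of RPS20A, RPSaA, RPS10A and RPS11C lie lower. Centring the deposited values would move each circle 1.05 to the left.

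S2, S3 and S9 line the channel through which mRNA enters the small subunit, and S3 and S9 take part in opening its structure. The 3 RPS3 copies were called higher in RNC on both scales, though lower with the deposited values centred. RPS3B (AT3G53870; chromosome 3, 19951424 to 19953018, plus strand) had 134 and 133 RPKM in the RNC libraries, against 77.8 and 76.0 RPKM in the mRNA libraries. Its density was 236 and 234 in the RNC libraries, against 162 and 159 in the mRNA libraries, so that the groups did not overlap on either scale. Density rose by 0.55 (SE 0.044, adjusted p = 1.98e-05) on the log2 scale, the highest value of the 35 genes, and the deposited change was 0.79. RPS3A (AT2G31610; chromosome 2, 13450241 to 13451982, plus strand) had 76.0 and 66.8 RPKM in the RNC libraries, against 57.7 and 55.6 RPKM in the mRNA libraries, with a density change of 0.25 (SE 0.066, adjusted p = 0.0141; lost without RNC 1 at 0.0962 or mRNA 2 at 0.0679). RPS3C (AT5G35530; chromosome 5, 13710026 to 13712288, minus strand) had 47.0 and 47.0 RPKM in the RNC libraries, against 34.8 and 35.0 RPKM in the mRNA libraries, with a density change of 0.17 (SE 0.051, adjusted p = 0.0248; lost without any 1 of the 4 libraries, at 0.0579 to 0.0921). As deposited, RNC and mRNA libraries did not overlap in either gene, and the changes were 0.33 and 0.42. RPS9B (AT5G15200; chromosome 5, 4934810 to 4936429, minus strand) had 268 and 259.9 RPKM in the RNC libraries, against 195 and 193 RPKM in the mRNA libraries, with a deposited change of 0.44, and its density rose by 0.30 (SE 0.041, adjusted p = 0.000449). The minor copy RPS9C (AT5G39850; chromosome 5, 15949910 to 15951475, plus strand) had 5.58 and 5.69 RPKM in the RNC libraries, against 3.18 and 2.92 RPKM in the mRNA libraries, with a density change of 0.30 (SE 0.098, adjusted p = 0.0376; lost without any 1 of the 4 libraries, at 0.0657 to 0.161). Both S9 copies were thus called higher, although their mRNA differed by 63.5-fold, and both were lower with the deposited values centred. RPS2C (AT2G41840; chromosome 2, 17459685 to 17461539, minus strand) had 141 and 136 RPKM in the RNC libraries, against 114 and 119 RPKM in the mRNA libraries. The deposited change of 0.25 (SE 0.047, adjusted p = 0.00028) passed the test and the density change of 0.087 (SE 0.046, adjusted p = 0.172) did not, except with densities centred.

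Sa, S5 and S14 lie on the side where the mRNA leaves, S14 on the platform and S5 in the head next to the exit site of the tRNA. RPSaA (AT1G72370; chromosome 1, 27242845 to 27244931, minus strand) had 199 and 191 RPKM in the RNC libraries, against 122 and 121 RPKM in the mRNA libraries, a deposited change of 0.68 (SE 0.045, adjusted p = 8.12e-09). Its density was 142 and 136 in the RNC libraries, against 254 and 252 in the mRNA libraries, a log2 change of -0.86 (SE 0.046, adjusted p = 2.04e-06). The RNC libraries were thus above the mRNA libraries on one scale and below them on the other. If the true RNC reads were double the recovered ones, the density change would be 0.13. The minor copy RPSaB (AT3G04770; chromosome 3, 1309273 to 1311129, minus strand) had 2.03 and 1.72 RPKM in the RNC libraries, against 1.20 and 1.59 RPKM in the mRNA libraries, and neither the deposited change of 0.27 (SE 0.13, adjusted p = 0.0684) nor the density change of 0.10 (SE 0.14, adjusted p = 0.597) passed. The deposited change did pass without RNC 2 (0.35, adjusted p = 0.0233), without mRNA 2 (0.39, 0.0462) and with its first listed transcript (0.43, 0.00656). For S5, RPS5A (AT3G11940; chromosome 3, 3777824 to 3779545, minus strand), whose promoter is widely used to drive genes in dividing cells, had 107 and 105 RPKM in the RNC libraries, against 99.8 and 99.2 RPKM in the mRNA libraries. Its deposited change of 0.090 (SE 0.047, adjusted p = 0.0856) did not pass, while density rose by 0.43 (SE 0.043, adjusted p = 7.39e-05) from counts of 10292 and 9332 RNC reads and 6720 and 6718 mRNA reads. RPS5B (AT2G37270; chromosome 2, 15647677 to 15649471, minus strand) had 79.9 and 82.1 RPKM in the RNC libraries, against 39.1 and 35.8 RPKM in the mRNA libraries, and was called higher on both scales, at 1.09 (SE 0.058, adjusted p = 8.3e-10) as deposited and 0.24 (SE 0.059, adjusted p = 0.0121; lost without RNC 2 at 0.0531 or mRNA 2 at 0.062) as density. Among the S14 copies, RPS14B (AT3G11510; chromosome 3, 3623448 to 3624961, minus strand) had 152 and 146 RPKM in the RNC libraries, against 123 and 113 RPKM in the mRNA libraries, and was called higher on both scales, at 0.33 as deposited and 0.17 (SE 0.052, adjusted p = 0.0294; lost without RNC 1 at 0.148 or mRNA 2 at 0.131) as density. RPS14A (AT2G36160; chromosome 2, 15169818 to 15171459, plus strand) had 92.9 and 89.0 RPKM in the RNC libraries, against 70.5 and 67.4 RPKM in the mRNA libraries. RPS14C (AT3G52580; chromosome 3, 19503153 to 19504973, plus strand) had 24.4 and 24.0 RPKM in the RNC libraries, against 18.1 and 17.3 RPKM in the mRNA libraries. Both were called higher as deposited, by 0.39 and 0.43, and neither passed as density, where the log2 difference was -0.11 (SE 0.051, adjusted p = 0.135) for RPS14A and -0.053 (SE 0.062, adjusted p = 0.536) for RPS14C.

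S10, S15, S18 and S20 are proteins of the head. S10 and S20 are sites of ubiquitin addition on stalled ribosomes in human cells, S15 lies near the decoding site, and S18 takes part in a bridge to the large subunit. RPS10A (AT4G25740; chromosome 4, 13107136 to 13108827, minus strand) had 24.9 and 24.6 RPKM in the RNC libraries, against 39.7 and 40.5 RPKM in the mRNA libraries, called lower as deposited at -0.67 (SE 0.059, adjusted p = 1.58e-07) and as density at -0.87 (SE 0.054, adjusted p = 4.45e-06). With doubled RNC reads the density change would be 0.12. Its paralogs were higher in the RNC libraries. RPS10B (AT5G41520; chromosome 5, 16609021 to 16610692, minus strand) had 270.2 and 263 RPKM in the RNC libraries, against 90.1 and 88.7 RPKM in the mRNA libraries, with a density change of 0.085 (SE 0.045, adjusted p = 0.171). RPS10C (AT5G52650; chromosome 5, 21355541 to 21357219, minus strand) had 135 and 124 RPKM in the RNC libraries, against 62.6 and 59.99 RPKM in the mRNA libraries, with a density change of 0.16 (SE 0.057, adjusted p = 0.0479; lost without RNC 1 at 0.296, mRNA 1 at 0.0671 or mRNA 2 at 0.169). Of these, RPS10C passed on both scales, at 1.07 as deposited, and RPS10B as deposited, at 1.56, and as density with densities centred alone. RPS15A (AT1G04270; chromosome 1, 1141558 to 1143130, minus strand), among the 5 genes with most mRNA in the set, had 61.6 and 65.2 RPKM in the RNC libraries, against 113 and 112 RPKM in the mRNA libraries. It was called lower on both scales, at -0.82 (SE 0.051, adjusted p = 3.73e-09) as deposited and -0.33 (SE 0.047, adjusted p = 0.00064) as density. With doubled RNC reads the density change would be 0.67.

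The RPS18 copies are known to encode nearly the same protein, and RPS18A is the gene whose mutant has pointed first leaves. RPS18A (AT1G22780; chromosome 1, 8067864 to 8069356, plus strand) had 16.8 and 16.7 RPKM in the RNC libraries, against 45.8 and 46.8 RPKM in the mRNA libraries, the lowest deposited change of the set, at -1.41 (SE 0.061, adjusted p = 9.38e-11). The recovered length behind its RNC value was 1123 bases, and that for RPS18C was 201 bases. As density its change was -0.19 (SE 0.050, adjusted p = 0.0173; lost without RNC 1 at 0.0617, RNC 2 at 0.0685 or mRNA 2 at 0.0641), also called lower. That call was lost with densities centred (-0.092, adjusted p = 0.188), and with doubled RNC reads the change would be 0.81. RPS18C (AT4G09800; chromosome 4, 6173712 to 6175200, plus strand) had 167 and 175 RPKM in the RNC libraries, against 72.6 and 73.6 RPKM in the mRNA libraries, so that the deposited change was 1.22 (SE 0.048, adjusted p = 3.88e-11). As density it was 0.026 (SE 0.048, adjusted p = 0.704) and did not pass. Reads of RPS18C numbered 4772 and 4639 in RNC and 4229 and 4306 in mRNA, and those of RPS18A 2680 and 2469 in RNC and 2671 and 2745 in mRNA. RPS18B (AT1G34030; chromosome 1, 12370065 to 12371554, minus strand) had 35.7 and 36.2 RPKM in the RNC libraries, against 37.2 and 35.0 RPKM in the mRNA libraries, and passed on neither scale, with -0.0062 (SE 0.060, adjusted p = 0.924) as deposited and -0.13 (SE 0.056, adjusted p = 0.1) as density. Its deposited values overlapped between RNC and mRNA, and the deposited change was 0.037 without mRNA 1. The wide deposited differences among the 3 copies thus came down to density changes between -0.19 and 0.026. How reads that fit several copies were placed is not stated, so the split among near-identical copies is uncertain.

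S20 showed the widest deposited differences. RPS20B (AT3G47370; chromosome 3, 17453423 to 17454730, minus strand) had 214 and 208 RPKM in the RNC libraries, against 28.5 and 25.6 RPKM in the mRNA libraries, the highest deposited change of the 35 genes at 2.92 (SE 0.058, adjusted p = 8.96e-14). The recovered lengths behind its RNC values were 51 to 190 bases, and its density rose by 0.37 (SE 0.065, adjusted p = 0.00212). RPS20C (AT5G62300; chromosome 5, 25021200 to 25022564, minus strand), the copy with most mRNA, had 58.6 and 57.5 RPKM in the RNC libraries, against 69.5 and 62.3 RPKM in the mRNA libraries, called lower as deposited at -0.18 (SE 0.060, adjusted p = 0.0139) and higher as density at 0.19 (SE 0.059, adjusted p = 0.034; lost without RNC 1 at 0.113, RNC 2 at 0.0681 or mRNA 2 at 0.158). The deposited call was lost without RNC 2 (-0.16, adjusted p = 0.0525) or mRNA 1 (-0.099, 0.155). RPS20A (AT3G45030; chromosome 3, 16471361 to 16472409, minus strand) had 45.2 and 47.2 RPKM in the RNC libraries, against 47.6 and 46.1 RPKM in the mRNA libraries, overlapping and with no call as deposited at -0.020 (SE 0.056, adjusted p = 0.741). Its density was 61.8 and 64.4 in the RNC libraries, against 99.1 and 96.3 in the mRNA libraries, called lower at -0.62 (SE 0.054, adjusted p = 2.91e-05), and the change would be 0.37 with doubled RNC reads.

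S4, S6, S7, S8, S11 and S13 belong to the body of the subunit. S6 is the substrate of the S6 kinase downstream of TOR, and S13 takes part in a bridge to the large subunit. RPS4A (AT2G17360; chromosome 2, 7546440 to 7548406, plus strand) had 177 and 173 RPKM in the RNC libraries, against 56.2 and 57.2 RPKM in the mRNA libraries, called higher on both scales, at 1.61 (SE 0.047, adjusted p = 2.35e-12) as deposited and 0.40 (SE 0.047, adjusted p = 0.00019) as density. RPS4B (AT5G07090; chromosome 5, 2202364 to 2204150, plus strand) had 32.8 and 32.8 RPKM in the RNC libraries, against 87.6 and 84.0 RPKM in the mRNA libraries, a deposited change of -1.36 (SE 0.054, adjusted p = 4.11e-11), while its density change of 0.11 (SE 0.046, adjusted p = 0.0976) did not pass, except with densities centred. RPS4D (AT5G58420; chromosome 5, 23619459 to 23621094, plus strand) had 44.3 and 44.2 RPKM in the RNC libraries, against 51.9 and 47.7 RPKM in the mRNA libraries, lower as deposited at -0.16 (SE 0.059, adjusted p = 0.0185) and not called as density at -0.055 (SE 0.056, adjusted p = 0.478). The deposited call was lost without RNC 2 (-0.16, adjusted p = 0.0538) or mRNA 1 (-0.11, 0.16). The order of the 3 RPS4 copies in RNC, with RPS4A far above the others as deposited, was therefore not that of their reads, which numbered 6585 and 5962 for RPS4A and 7284 and 6747 for RPS4B.

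The S6 copies had nearly equal mRNA. RPS6A (AT4G31700; chromosome 4, 15345979 to 15347804, minus strand) had 44.3 and 45.0 RPKM in the RNC libraries, against 72.5 and 74.8 RPKM in the mRNA libraries. RPS6B (AT5G10360; chromosome 5, 3258404 to 3260254, minus strand) had 108 and 112 RPKM in the RNC libraries, against 71.7 and 71.1 RPKM in the mRNA libraries. As deposited the copies went apart, RPS6A at -0.71 (SE 0.053, adjusted p = 2.66e-08) and RPS6B at 0.62 (SE 0.049, adjusted p = 4.63e-08), whereas in density both were called higher, RPS6A at 0.14 (SE 0.047, adjusted p = 0.0384; lost without RNC 1 at 0.102, RNC 2 at 0.153 or mRNA 1 at 0.125) and RPS6B at 0.26 (SE 0.046, adjusted p = 0.00244). For S7, RPS7C (AT5G16130; chromosome 5, 5268421 to 5270199, plus strand) had 114 and 111 RPKM in the RNC libraries, against 54.2 and 54.5 RPKM in the mRNA libraries, and was called higher on both scales, at 1.03 (SE 0.049, adjusted p = 2.72e-10) as deposited and 0.40 (SE 0.048, adjusted p = 0.000207) as density. RPS7A (AT1G48830; chromosome 1, 18059450 to 18061302, minus strand) had 92.1 and 89.2 RPKM in the RNC libraries, against 27.5 and 29.6 RPKM in the mRNA libraries, called higher as deposited at 1.63 (SE 0.058, adjusted p = 1.35e-11), and its density change of -0.17 (SE 0.061, adjusted p = 0.0503) did not pass. That density change would be 0.81 with doubled RNC reads. Of the S8 genes, only RPS8B (AT5G59240; chromosome 5, 23902462 to 23903767, minus strand) could be looked at, with 23 and 31 RNC reads and 25 and 26 mRNA reads.

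Among the S11 genes, RPS11C (AT5G23740; chromosome 5, 8007921 to 8009436, minus strand) had 92.2 and 102 RPKM in the RNC libraries, against 55.5 and 52.3 RPKM in the mRNA libraries, higher as deposited at 0.83 (SE 0.059, adjusted p = 1.68e-08). Its density was 42.1 and 46.4 in the RNC libraries, against 116 and 109 in the mRNA libraries, called lower at -1.33 (SE 0.064, adjusted p = 1.17e-06), the lowest density change of the set. With doubled RNC reads it would be -0.34. RPS11A (AT3G48930; chromosome 3, 18140771 to 18142281, minus strand) had 113 and 109 RPKM in the RNC libraries, against 75.0 and 70.5 RPKM in the mRNA libraries, higher as deposited at 0.60 (SE 0.051, adjusted p = 1.21e-07) and not called as density at -0.096 (SE 0.051, adjusted p = 0.174). The minor copy RPS11B (AT4G30800; chromosome 4, 15000960 to 15002671, plus strand) had 5.49 and 5.18 RPKM in the RNC libraries, against 1.72 and 1.83 RPKM in the mRNA libraries, higher as deposited at 1.19 (SE 0.11, adjusted p = 1.92e-07) and not called as density at 0.15 (SE 0.11, adjusted p = 0.311). For S13, RPS13B (AT4G00100; chromosome 4, 36916 to 38384, plus strand), known as a gene whose mutant has pointed first leaves, had 173 and 175 RPKM in the RNC libraries, against 82.5 and 79.6 RPKM in the mRNA libraries, and was called higher on both scales, at 1.09 (SE 0.046, adjusted p = 8.41e-11) as deposited and 0.43 (SE 0.045, adjusted p = 9.75e-05) as density. RPS13A (AT3G60770; chromosome 3, 22460189 to 22461779, minus strand) had 41.0 and 45.0 RPKM in the RNC libraries, against 57.3 and 58.0 RPKM in the mRNA libraries, called lower as deposited at -0.42 (SE 0.060, adjusted p = 2.09e-05) and higher as density at 0.43 (SE 0.057, adjusted p = 0.000382). The S13 copies, with deposited calls in opposite directions, had nearly the same density change.

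The paralogs of a protein were then compared by the share of the protein's summed level that each copy supplied. By density, the copy that led in mRNA also led in RNC for 12 of the 13 proteins, the exception being S6, where the copies were nearly level, and the median absolute difference between the RNC and the mRNA share was 2.85 percentage points over 33 genes. By the deposited values the leader was the same for 10 of 13, and the median difference was 10.2 points. With 2 libraries against 2, the exact permutation test of a single share cannot go below p = 0.33, so no share was tested, and shares of the copies of a protein depend on each other since they sum to the whole.

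By density, RPS11C supplied 22.1% and 24.4% in the RNC libraries, against 42.0% and 42.0% in the mRNA libraries, the greatest difference of the 33 genes. RPS11A supplied 75.6% and 73.5% in the RNC libraries, against 56.7% and 56.6% in the mRNA libraries. RPS20A supplied 21.0% and 22.1% in the RNC libraries, against 32.7% and 34.4% in the mRNA libraries, and RPS10A 11.5% and 11.9% in the RNC libraries, against 20.6% and 21.4% in the mRNA libraries. Recovered reads may be a fraction of the true ones: with its own RNC reads doubled, the RNC share of RPS11C would be 37.7%, that of RPS20A 35.5% and that of RPS10A 21.0%. RPS7A supplied 26.1% and 26.0% in the RNC libraries, against 33.7% and 35.2% in the mRNA libraries, with RPS7B not in these sums. Its RNC share would be 41.3% with its own RNC reads doubled. The other shares moved by less: RPS3B supplied 50.4% and 52.2% in the RNC libraries, against 45.7% and 45.6% in the mRNA libraries, and RPS18C 49.7% and 50.9% in the RNC libraries, against 46.7% and 47.4% in the mRNA libraries. RPS13B supplied 59.5% and 57.5% in the RNC libraries, against 59.0% and 57.8% in the mRNA libraries, so that the shares of S13 overlapped between RNC and mRNA, as did those of S9.

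The copies with little mRNA also gave small shares in RNC. RPSaB supplied 2.37% and 2.099% in the RNC libraries, against 0.976% and 1.30% in the mRNA libraries, RPS9C 1.56% and 1.63% in the RNC libraries, against 1.61% and 1.49% in the mRNA libraries, and RPS11B 2.27% and 2.15% in the RNC libraries, against 1.30% and 1.47% in the mRNA libraries. With the RNC reads of RPSaA doubled, RPSaA would supply 98.9% of Sa in RNC, the same as its 98.9% in mRNA. With its own RNC reads doubled, RPSaB would supply 4.37%. On the deposited scale, by contrast, RPS20B supplied 66.9% ± 0.596 in RNC and 19.3% ± 0.357 in mRNA (SD, n = 2 each), the greatest difference on that scale, RPS4A 69.4% ± 0.316 in RNC and 29.5% ± 1.102 in mRNA, and RPS18C 76.5% ± 0.509 in RNC and 47.0% ± 0.483 in mRNA. By density these 3 genes supplied 25.0%, 34.8% and 50.3% of their proteins in RNC. For the summed density of a protein, the log2 ratio of RNC to mRNA was highest in S13 at 0.43 and S3 at 0.39, within 0.064 of 0 in S10, S14 and S20, and lowest in S11 at -0.49 and Sa at -0.85, the proteins of RPS11C and RPSaA. With the RNC reads of that 1 copy doubled, S11 would be at -0.19 and Sa at 0.14, so the place of Sa in this order rests on the recovered reads of RPSaA.

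**Figure D3:**
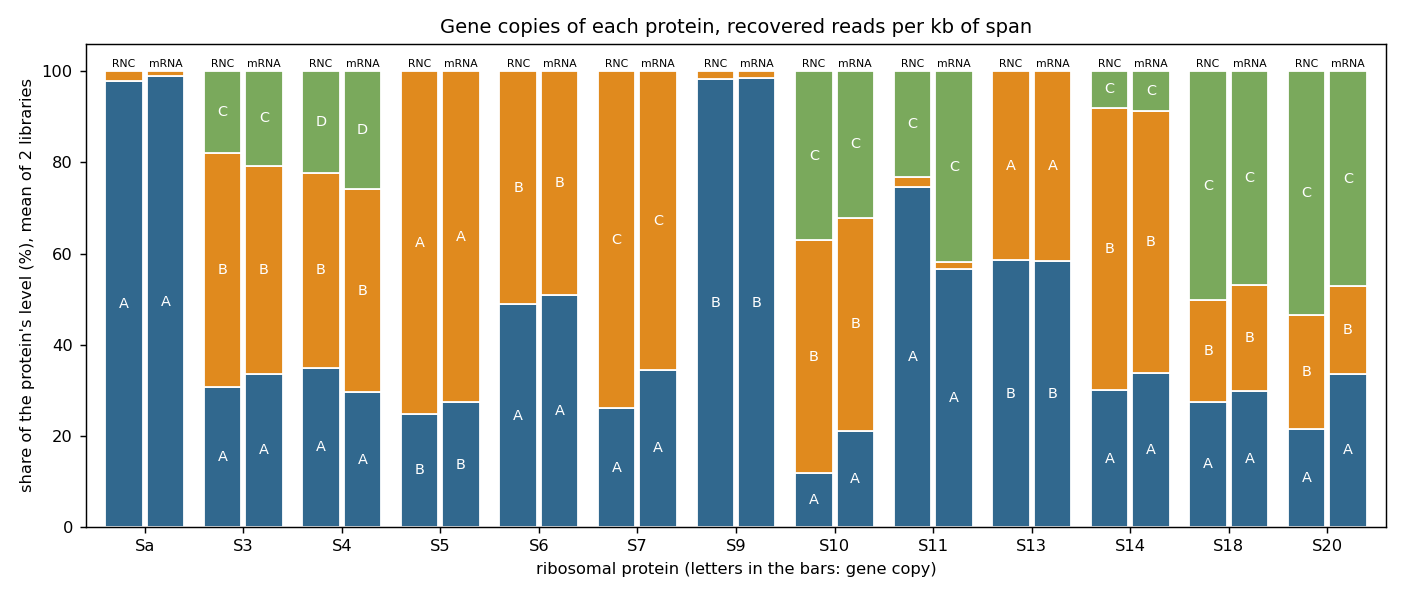
Share of each protein's summed read density supplied by its gene copies, in RNC (left bar) and mRNA (right bar), mean of 2 libraries each; letters name the copies and unlabelled slices are under 6%. The bars of a pair are alike for most proteins, and S11, S10 and S20 differ most, through RPS11C, RPS10A and RPS20A.

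Other ribosomal protein genes were counted in the same way. Of 58 other 40S genes on a list written from general knowledge, 47 were in the table; 34 were called higher and 9 lower as deposited, with a median log2 change of 0.47, and 21 higher and 9 lower as density, with a median of 0.15. Of 40 genes of the large subunit, 36 were in the table; 26 were higher and 10 lower as deposited, with a median of 0.88, and 22 higher and 5 lower as density, with a median of 0.22. In density all 3 lists had a larger part called higher than the 18.0% of all genes. As deposited, all 3 had a smaller part called higher than the 76.1% of all genes, and medians below the 0.98 of all genes tested. The standard deviation of the density change among the 35 tested genes was 0.41, against 0.51 among all genes tested, and that of the deposited change 0.88, against 1.19. All genes were not matched to the set in level: the median mRNA was 57.2 RPKM in the set and 2.43 RPKM over all genes of the table.

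In ac4C-seq, the question was which cytosines of these transcripts were read as T more often after NaCNBH3. The 13 plus-strand genes of the set held 557 listed sites, of which 550 were called higher in the treated library and 0 lower, while 7 sites, all in RPS14A, were not called (Fisher's exact test, two-sided, T against all other bases; adjusted p under 0.05 over 66873 sites). The table lists a site by its T reads in the treated library, at least 5 of them, while the control library may have 0, so the direction of these calls is largely set by what was listed and their count is a description. The share called was 98.7%, beside 94.3% of all tested sites. At least 1 called site lay in each of the 13 genes, beside 34.0% of the 10620 plus-strand genes in the table. Rates were low: the median over the 550 sites was 1.19% in the treated library and 0% in the control library, against 1.17% and 0% over the 54904 called sites in plus-strand genes. The test compares 2 libraries, not the conditions, since neither was replicated, and the labels name no molecular identifiers, and several reads may be copies of one molecule, so that intervals and upper limits cover counting error only.

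What was listed followed depth. No site in the table had fewer than 5 T reads in the treated library, so the lowest rate that could be listed is 5 divided by the depth, and many sites lay at that bound. Depth at the called sites of the set had a median of 593 treated and 2625 control reads, against 746 and 2763 in plus-strand genes. Across the 550 sites, treated depth and treated rate had a Spearman correlation of -0.680, a description in which the bound takes part. Genes with more mRNA had more listed sites: the Spearman correlation of mRNA RPKM with the number of listed sites was 0.845 over the 13 genes. RPS14A had most, with 80 sites, followed by RPS13B with 77 and RPS18C with 70, while RPS9C had 3 and RPS11B had 1. RPS7C held 61 sites, RPS4B 62, RPS4A and RPS3B 41 each, RPS18A 39, RPS3A 34, RPS4D 25 and RPS14C 23. At 400 to 600 treated reads, the median rate was 1.33% over 205 sites of the set and 1.30% over 7680 sites in plus-strand genes. At 1000 to 2000 reads it was 0.830% over 159 sites and 0.840% over 9884 sites. At matched depth, rates in the set were thus close to those of all plus-strand genes, the set included, by description and without a test. The bound of 5 T reads takes part in both medians of each depth window.

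**Figure D4:**
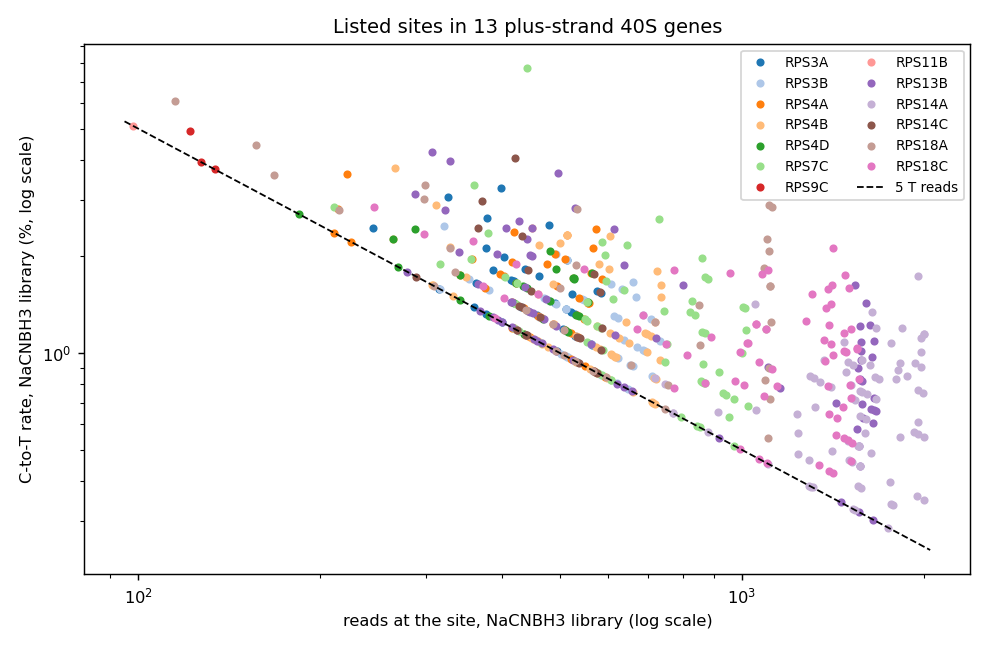
Treated C-to-T rate (log scale) against treated reads at the site (log scale) for the 557 listed sites in 13 plus-strand genes, by gene; the dashed line is the rate that 5 T reads give. Points crowd along the line, and RPS7C, RPS18A and RPS11B each have 1 site above 5%.

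Paralogs of a protein differed in their number of sites and in depth, though not to the same degree: RPS4B, RPS4A and RPS4D held 62, 41 and 25 sites at median treated depths of 567, 490.0 and 469 reads. In S18, RPS18C had 70 listed sites at a median treated depth of 1209 reads, and RPS18A 39 at 595 reads. Pooled over their sites, 1.05% of treated and 0.0242% of control reads were T in RPS18C, and 1.54% and 0.0258% in RPS18A. At 1000 to 2000 reads, RPS18A had a median rate of 1.62% over 13 sites and RPS18C 1.01% over 49 sites. At 400 to 600 reads the order was the reverse, with 1.18% over 11 sites in RPS18A and 1.67% over 4 sites in RPS18C. In S14, RPS14A had 80 sites at a median of 1569.5 reads with a pooled treated rate of 0.726%, the lowest of the 13 genes, and RPS14C had 23 at 447 reads with 1.48%. In S4, the pooled treated rates were 1.58% in RPS4A, 1.30% in RPS4B and 1.59% in RPS4D. In S3, they were 1.62% in RPS3A and 1.25% in RPS3B, at 448 and 562 reads. Within S3, S4, S14 and S18, the copy with the shallower sites had the higher pooled rate in each pair, a comparison in which the bound of 5 T reads takes part. The pooled control rates lay between 0 and 0.0504% in the 13 genes.

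High rates were rare. A treated rate of 5% was reached at 3 of the 550 called sites, or 0.545%, against 3.88% of the called sites in plus-strand genes. A rate of 2% was reached at 77 of the 550. These shares were not matched for depth. Listing needs 5 T reads, so a site with few reads reaches 5% by that bound alone. The least treated depth among the called sites of the set was 98 reads. At base 546 of RPS7C (position 5268966, chromosome 5), 34 of 441 treated reads were T, or 7.71% (5.40 to 10.6), against 48 of 1863 control reads, a rate of 2.58% (1.91 to 3.40) (95% Clopper-Pearson intervals, here and below). This cytosine was thus read as T in the control library too. Where no control read was T, the upper limit given here and below is instead 3 counts divided by the reads. The Clopper-Pearson upper bound is higher, for example 0.539% for the control reads of the RPS18A site named next. At base 95 of RPS18A (position 8067958, chromosome 1), 7 of 115 treated reads were T, or 6.09% (2.48 to 12.1), against 0 of 682 control reads, a count that sets an upper limit of 0.440% on the rate. At base 963 of RPS11B (position 15001922, chromosome 4), 5 of 98 treated reads were T, or 5.10% (1.68 to 11.5), against 0 of 176 control reads, a count that sets an upper limit of 1.70% on the rate. The sites of RPS18A and RPS11B rest on 7 and 5 T reads. Positions follow TAIR10, the build named in the submitters' processing notes, and bases are counted from 1 at the start of the gene.

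In the other plus-strand genes the highest site with at least 50 reads in both libraries lay under 5%. At base 797 of RPS9C (position 15950706, chromosome 5), 6 of 122 treated reads were T, or 4.92% (1.83 to 10.4), against 0 of 391 control reads, a count that sets an upper limit of 0.767% on the rate. At base 263 of RPS13B (position 37178, chromosome 4), 13 of 307 treated reads were T, or 4.23% (2.27 to 7.13), against 0 of 1136 control reads, a count that sets an upper limit of 0.264% on the rate. At base 515 of RPS14C (position 19503667, chromosome 3), 17 of 421 treated reads were T, or 4.04% (2.37 to 6.39), against 0 of 1128 control reads, a count that sets an upper limit of 0.266% on the rate. These 3 sites had no T read in the control library, as did 339 of the 550 called sites. At base 409 of RPS4B (position 2202772, chromosome 5), 10 of 266 treated reads were T, or 3.76% (1.82 to 6.80), against 2 of 1357 control reads, a rate of 0.147% (0.0179 to 0.531). At base 121 of RPS4A (position 7546560, chromosome 2), 8 of 222 treated reads were T, or 3.60% (1.57 to 6.98), against 0 of 1236 control reads, a count that sets an upper limit of 0.243% on the rate. At base 1283 of RPS3A (position 13451523, chromosome 2), 13 of 399 treated reads were T, or 3.26% (1.75 to 5.51), against 0 of 1884 control reads, a count that sets an upper limit of 0.159% on the rate. The remaining ones were lower still. At base 1349 of RPS18C (position 6175060, chromosome 4), 7 of 246 treated reads were T, or 2.85% (1.15 to 5.77), against 0 of 655 control reads, a count that sets an upper limit of 0.458% on the rate. At base 1405 of RPS4D (position 23620863, chromosome 5), 5 of 185 treated reads were T, or 2.70% (0.883 to 6.19), against 0 of 334 control reads, a count that sets an upper limit of 0.898% on the rate. At base 1300 of RPS3B (position 19952723, chromosome 3), 8 of 321 treated reads were T, or 2.49% (1.08 to 4.85), against 0 of 1630 control reads, a count that sets an upper limit of 0.184% on the rate. RPS14A, the deepest gene, had the lowest of these maxima. At base 933 of RPS14A (position 15170750, chromosome 2), 34 of 1958 treated reads were T, or 1.74% (1.21 to 2.42), against 0 of 3704 control reads, a count that sets an upper limit of 0.0810% on the rate. Adjusted p by Fisher's exact test was at most 0.00629 at the highest site of each of the 13 genes. Each was picked for its rate among up to 80 listed sites of its gene. The p-values and intervals take no account of that choice, and the rates at these sites may be overstated.

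Along the genes, called sites lay mostly in the middle and in the fourth of 5 equal parts of the span. Of the 550 sites, 5.82%, 21.8%, 25.6%, 39.5% and 7.27% fell in the 5 parts from start to end, against 15.0%, 22.6%, 24.5%, 27.3% and 10.5% of the sites in plus-strand genes. Spans include introns, which the files do not mark, so exons, introns and untranslated regions cannot be told apart, and bare stretches between groups of sites are seen in most of the 13 genes. The first listed base ranged from 68 in RPS7C to 963 in RPS11B, where it is the sole site. RPS13B overlaps AT4G00090 on its own strand, and RPS7C and RPS18C overlap genes on the other strand, but none of their sites lay in the overlaps.

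**Figure D5:**
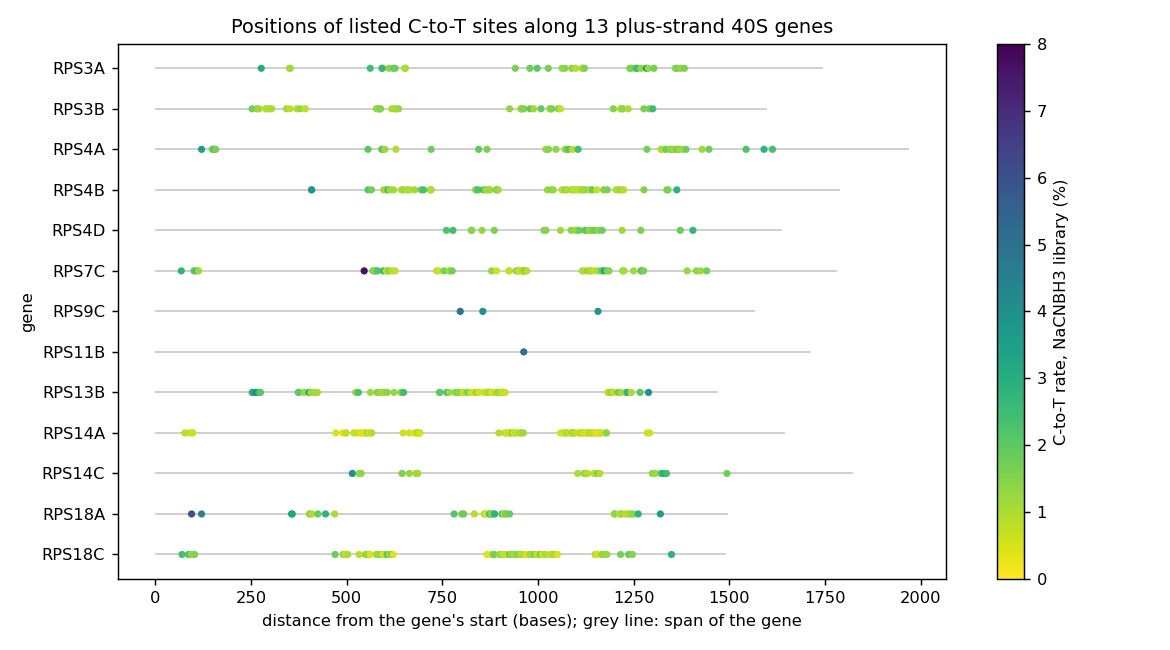
Listed sites (points, coloured by treated C-to-T rate in percent) along the spans of the 13 plus-strand genes (grey lines), in bases from the start of the gene. Sites form groups separated by bare stretches, and 39.5% of the called ones lie in the fourth of 5 equal parts of the span.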

How the data were processed

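RNC-seq covered 2 RNC and 2 input mRNA libraries, and ac4C-seq 1 NaCNBH3-treated and 1 control library. RPKM values per transcript were made and deposited by the authors. Their deposited translation efficiency is the natural log of mean RNC over mean mRNA RPKM (100% of 38973 transcripts, tolerance 1e-06) and was not used further. At each listed cytosine the deposited site table gives T counts, total counts and the authors' p-value. The column headed C was taken as the total, because comparing 2 proportions with it returns the authors' deposited p-value at 100% of sites (relative tolerance 0.001). Per the submitters' processing notes, STAR 2.5.3a and SAMtools were used with TAIR10; read placement, strandedness of counting and how sites were selected for listing are not given in the sources used here. Library preparation and growth conditions are in the labels' protocols.

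Values were averaged over the transcripts of a gene. Genes whose mean reached 1 RPKM entered a limma 3.58.1 fit of log2(RPKM + 1) in R 4.3.3, with a trended eBayes prior and no block or scaling, and with the Benjamini-Hochberg adjustment over all genes. Fold changes on this scale understate changes of low genes. All mRNA values were whole reads over the gene span (100%, tolerance 0.01 reads), and the steps imply library totals of 39128550 and 39339118 mRNA reads and 142189656 and 131616714 RNC reads. RNC reads were recovered as the smallest whole numbers that give the ratios between libraries and transcripts. Since the RPKM were not kept as counts, no count model was run. Fisher's exact test (two-sided, Benjamini-Hochberg adjustment) was run on sites where both libraries had 10 or more reads; intervals are 95% Clopper-Pearson, and a count of 0 allows 3 counts. Each procedure was tested on simulated data, where the recovery of RNC reads returned a fraction of the true reads for part of the genes. Python 3.11.15, numpy 2.4.6, pandas 2.3.3, scipy 1.17.1 and matplotlib 3.10.9 were used. For sites, the one named in each plus-strand gene is that with the highest treated rate at 50 or more reads in both libraries, and any site 5 points above the control is named.

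Members, gene lists, tests and alternatives were chosen with earlier results of these data known. A genome, promoters and proteins of Arabidopsis were not used here, so sequence context and promoter motifs were not computed. The 12 antibody-pulldown samples were not analysed here.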

Additional observations from a re-analysis of the deposited data

Results flagged for a closer look

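Sites in the deposited table carry no strand, and a listed cytosine was read as lying on the plus strand. Within the spans of the set's 23 minus-strand genes, which the comparisons above do not use, 7 sites were listed, 1 each in 7 genes. Of these, 6 were called higher in the NaCNBH3 library, beside 94.3% of all tested sites (two-sided Fisher's exact test, 95% Clopper-Pearson intervals). The limit for a count of 0 is the one described above. At base 1074 of RPS10A (position 13108209, chromosome 4), 41 of 375 treated reads were T, or 10.9% (7.96 to 14.5), against 105 of 1368 control reads, a rate of 7.68% (6.32 to 9.22). The adjusted p was 0.0487. It had the highest rate of any listed site in the set, in both libraries. At base 1084 of RPS7A (position 18060533, chromosome 1), 9 of 635 treated reads were T, or 1.42% (0.650 to 2.67), against 2 of 2484 control reads, a rate of 0.0805% (0.00975 to 0.291). The adjusted p was 4.2e-05. At base 1211 of RPS15A (position 1142768, chromosome 1), 14 of 1491 treated reads were T, or 0.939% (0.514 to 1.57), against 3 of 6014 control reads, a rate of 0.0499% (0.0103 to 0.146). The adjusted p was 1.75e-07. At base 1200 of RPS9B (position 4936009, chromosome 5), 7 of 1282 treated reads were T, or 0.546% (0.220 to 1.12), against 2 of 5710 control reads, a rate of 0.0350% (0.00424 to 0.126). The adjusted p was 0.000272. At base 975 of RPS5A (position 3778798, chromosome 3), 6 of 1816 treated reads were T, or 0.330% (0.121 to 0.718), against 0 of 4338 control reads, a count that sets an upper limit of 0.0692% on the rate. The adjusted p was 0.000884. At base 470 of RPS2C (position 17460154, chromosome 2), 5 of 3684 treated reads were T, or 0.136% (0.0441 to 0.316), against 4 of 14161 control reads, a rate of 0.0282% (0.00770 to 0.0723). The adjusted p was 0.024. The site not called was base 1123 of RPS11A (position 18141893, chromosome 3), where 8 of 2064 treated reads were T, or 0.388% (0.167 to 0.762), against 6 of 3767 control reads, a rate of 0.159% (0.0585 to 0.346). The spans of RPS2C and RPS15A overlap other minus-strand genes and those of RPS7A and RPS11A overlap plus-strand genes of the table, but none of the 7 sites lay in an overlap. As listing needs 5 T reads in the treated library alone, the direction of these calls is largely set by what was listed. What produced these reads was not tested.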

How the results depend on the processing

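Of the 35 tested genes, the deposited changes kept their sign and their call under a pseudocount of 0.1, with no filter, and, for the 32 genes left, with a minimum mean of 5 RPKM, where all genes gave 8074 higher and 1128 lower calls, from 12547 and 2156. With the first listed transcript, 34 kept both and RPSaB became called. With each library centred on its median, 16 genes reversed (RPSaA -0.37, RPSaB -0.78, RPS2C -0.80, RPS3A -0.72, RPS3B -0.26, RPS3C -0.63, RPS5A -0.96, RPS6B -0.43, RPS7C -0.015, RPS9B -0.61, RPS9C -0.34, RPS11A -0.45, RPS11C -0.22, RPS14A -0.65, RPS14B -0.72 and RPS14C -0.61), and the counts became 5 higher and 25 lower in the set and 6379 and 7216 over all genes. With 1 library left out, 23 to 24 genes of the set were called higher and 6 to 8 lower, and over all genes 12137 to 12494 higher and 1916 to 2149 lower. RPS18B and RPS20A, neither called, changed sign with the library left out, RPS18B between -0.050 and 0.037 and RPS20A between -0.049 and 0.0096: both were above 0 without RNC 1 (0.0046 and 0.0096) or mRNA 1 (0.037 and 0.0016).

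As read density, 10 genes reversed (RPSaA -0.86, RPS4B 0.11, RPS6A 0.14, RPS7A -0.17, RPS11A -0.096, RPS11C -1.33, RPS13A 0.43, RPS14A -0.11, RPS14C -0.053 and RPS20C 0.19), and over all genes 2967 were called higher and 3636 lower. With densities centred, 10 reversed (RPSaA -0.77, RPS4B 0.20, RPS4D 0.040, RPS6A 0.24, RPS7A -0.080, RPS11A -0.0014, RPS11C -1.23, RPS13A 0.52, RPS14A -0.011 and RPS20C 0.28), with 20 higher and 5 lower in the set (RPS18A lost its call and RPS2C, RPS4B and RPS10B gained one) and 4354 higher over all genes. With 1 library left out, density called 10 to 13 genes of the set higher and 5 to 7 lower, and over all genes 2250 (without RNC 1), 2307 (RNC 2) and 2114 to 2362 (either mRNA library) higher and 2893 to 3264 lower; these fits, and the doubling of RNC reads, were chosen after seeing the data.

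The labels give RNC and mRNA libraries the same replicate numbers, but nothing says that a number marks a shared culture. Deviations of same-numbered libraries from their group means had a correlation of -0.022 over genes as deposited and -0.024 as density. With the replicate block, the deposited calls in the set were 23 higher and 8 lower, with 12511 and 2139 over all genes. By density with the block, 16 were higher and 6 lower in the set, with 3018 and 3658 over all genes, and the same 10 genes had the opposite sign to the deposited change, with the same values as without the block.

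For sites, minimum depths of 50 reads or none gave 550 called sites in the plus-strand genes of the set. Of all tested sites, 94.4% and 94.3% were then called higher. The authors' deposited adjusted p gave 528 in 12 genes and 4 in minus-strand genes, beside 83.4% of all sites. An adjusted p under 0.01 gave 540 and 4, beside 90.1% of all sites. With sites free of control T reads alone, 339 sites in plus-strand genes of the set and 1 in its minus-strand genes were called. Over all such sites, 34940 of 36255 were called, or 96.4%. Depth limits what is listed: at 593 treated reads, a site under 5 T reads is not in the table. The promoter motifs and the sequence around sites were not run, for want of a genome or promoter table of Arabidopsis in the files used.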

Other observations

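Summed over all copies analysed, including the 47 other 40S genes in the table, S16 and S27a had the most mRNA of the 40S proteins, with 298 and 293 RPKM over 3 genes and 268 and 277 RPKM over 3 genes in the 2 mRNA libraries. S28 had 77.8 and 72.9 RPKM over 3 genes. S8 had 0.490 and 0.506 RPKM over its 1 analysed copy and S3a 86.5 and 81.3 RPKM over 1. These sums were looked at after the values were seen and depend on which copies were analysed.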
